A study of Homo sapiens with 2 samples.

Results

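The BCL2 family genes BCL2, BCL2L1, BCL2L2, MCL1, BCL2L11, BAK1, BID, BAD, BIK and BMF were followed in HGC-27 cells that carried either an empty pcDNA3.1 plasmid or pcDNA3.1-lncPSCA. They were chosen by name, by matching gene symbols to the Ensembl identifiers of the table, and all 10 of them were found among its 63677 genes. HGC-27 is a human gastric adenocarcinoma line, and both cultures were grown in RPMI-1640 with serum and harvested 48 hours after transfection with the reagent INTERFERin. The control group is 1 library with 21552098 counts and the lncPSCA group is 1 library with 23016646 counts. Each difference below is therefore between 2 libraries with no replicate check, no test between the groups was possible, and the intervals given are exact 95% intervals that cover counting error only.

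Proteins of the BCL2 family decide whether the outer mitochondrial membrane stays intact or is opened, the step that releases cytochrome c and starts the caspase cascade. Guardian proteins (BCL2, BCL2L1, BCL2L2 and MCL1) bind and hold back the pore-forming effectors BAX and BAK1. BH3-only proteins (BCL2L11, BID, BAD, BIK and BMF here) carry the short BH3 helix that fits the groove of the guardians, and several of them also activate the effectors directly. MCL1 turns over quickly, and many carcinoma lines depend on it or on BCL2L1.

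The labels' cell type was checked against marker genes. The mesenchymal gene VIM was at 2601 CPM (reads scaled to a fixed library total) in control and 2594 CPM in lncPSCA. Of the other mesenchymal markers, FN1 (fibronectin) had 554 and 1448 reads, a fold of 2.35 (2.13 to 2.59), and CDH2 had only 4 and 6 reads. The 5 epithelial markers KRT8, KRT18, KRT19, EPCAM and CDH1 summed to only 4.93 and 3.62 CPM, although GENCODE release 29 lists 50 pseudogenes named after KRT8 and 67 named after KRT18, and reads shared with such copies may not have been counted. The 6 gastric mucosa markers held 7 and 4 reads in all, with TFF1, TFF2, CLDN18 and GKN1 at 0 in both libraries. Blood markers (4 genes) summed to 3.89 and 3.79 CPM, and of the endothelial markers PECAM1 and CDH5 were at 0 in both libraries. The overexpressed RNA has no row of its own, but PSCA, the gene it is named for, had 22 reads in control and 28699 in lncPSCA. All of 10 interferon-stimulated genes were at least 2-fold higher in the lncPSCA library, from IRF1 at 2.79-fold to OAS1 at 55.2-fold. Under the 2-fold rule defined below, 3.02% of all measured genes were higher. The members below were therefore read in a library with a strong interferon signature, whose part in their values was not tested.

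For members of the family that the results turn on, RefSeq windows of 250 bases before an annotated transcription start are printed here, from the build GRCh38.p14, which is not the build named for the counts (hg19). BCL2L11 and BMF had the largest ratios among the members above the expression minimum and BCL2L1 the lowest. PMAIP1 is a further BH3-only gene of the family, described below, that was 2.0-fold higher. Capitals mark matches on either strand to any of 8 motifs. The GC box was searched with the letters GGGCGG, the CCAAT box with the letters of its name, the TATA box with the letters TATAAA and the E-box with the letters CACGTG. The cAMP response element was searched with the letters TGACGTCA, the core of the interferon-stimulated response element, shortened, with the letters GAAANNGAA, the gamma-activated site with the letters TTCNNNGAA and the forkhead site with the letters GTAAACA.
BCL2L11 chr2:111120664-111120913 (+ strand): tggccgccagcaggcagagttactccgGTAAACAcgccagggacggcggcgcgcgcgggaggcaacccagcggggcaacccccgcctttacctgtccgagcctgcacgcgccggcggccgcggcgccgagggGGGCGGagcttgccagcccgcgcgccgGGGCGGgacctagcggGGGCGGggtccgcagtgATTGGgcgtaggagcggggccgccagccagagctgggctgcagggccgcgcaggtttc
BMF chr15:40108880-40109129 (- strand): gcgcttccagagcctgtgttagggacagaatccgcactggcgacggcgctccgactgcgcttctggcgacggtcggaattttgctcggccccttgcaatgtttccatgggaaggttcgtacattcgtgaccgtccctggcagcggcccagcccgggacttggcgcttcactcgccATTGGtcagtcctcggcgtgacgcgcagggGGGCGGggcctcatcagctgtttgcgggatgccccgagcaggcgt
BCL2L1 chr20:31723964-31724213 (- strand): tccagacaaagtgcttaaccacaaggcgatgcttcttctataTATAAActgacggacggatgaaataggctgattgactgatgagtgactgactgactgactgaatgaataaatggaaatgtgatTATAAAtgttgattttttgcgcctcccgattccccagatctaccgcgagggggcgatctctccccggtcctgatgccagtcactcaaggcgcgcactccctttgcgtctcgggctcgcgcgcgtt
PMAIP1 chr18:59899746-59899995 (+ strand): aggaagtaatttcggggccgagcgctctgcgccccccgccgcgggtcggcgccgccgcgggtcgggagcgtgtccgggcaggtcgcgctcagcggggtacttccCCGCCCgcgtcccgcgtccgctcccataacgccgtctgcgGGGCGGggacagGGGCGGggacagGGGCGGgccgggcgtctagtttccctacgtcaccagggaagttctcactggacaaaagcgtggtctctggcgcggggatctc

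The BCL2L11 window held 3 GC boxes, a CCAAT box and a forkhead match that begins 223 bases before the start. Forkhead matches were present in 2.98% of the 35116 RefSeq windows of the same length, GC boxes in 42.6%, CCAAT boxes in 32.0%, TATA boxes in 10.7%, E-boxes in 6.34% and cAMP response elements in 1.65%. The BMF window shown held a GC box and a CCAAT box, and that of PMAIP1 held 4 GC boxes. The BCL2L1 window shown held a pair of TATA boxes and no GC box. BMF and BCL2L1 have 2 windows each in the table, and the BMF window that is not shown held no match to any of the 8 motifs. Windows were found for 7 of the 10 members, but not for BCL2L2, MCL1 and BIK. In the 17 windows of these members and of PMAIP1, BBC3 and HRK, some of which overlap, no letters matched the interferon-stimulated response element core (6.88% of all windows) or the gamma-activated site (6.57% of all windows). A match is a description of the letters, and which start HGC-27 cells use was not analysed here.

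No member differed strongly between the libraries. Of the 10 members, 9 had a mean of at least 1 CPM over both libraries; BIK did not. Under a 2-fold rule (at least 2-fold after adding a pseudocount of 1 read, with a counting interval wholly beyond 1.5-fold) 0 of the 9 were higher and 0 were lower, against 3.02% higher and 0.596% lower (3.62% together) of all 15440 genes that reached the same minimum. Under a 1.5-fold rule (a CPM ratio of at least 1.5 with an interval wholly beyond 1.2-fold) 0 of the 9 were called as well, against a background of 8.85% higher and 4.6% lower (13.5% together). The counting interval of the fold excluded 1 for 6 of the 9, with 2 above 1 (BCL2L11 and BMF) and 4 below 1 (BCL2L1, MCL1, BID and BAK1), and for 59.1% of all genes (27.0% above 1 and 32.1% below), so this share is close to the background. The log2 ratio was below 0 for 7 of the 9 members and for 51.9% of all genes (above 0 for 48.1%). The median log2 ratio of the 9 members was -0.08, and that of all measured genes was -0.02.

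**Figure D1:**
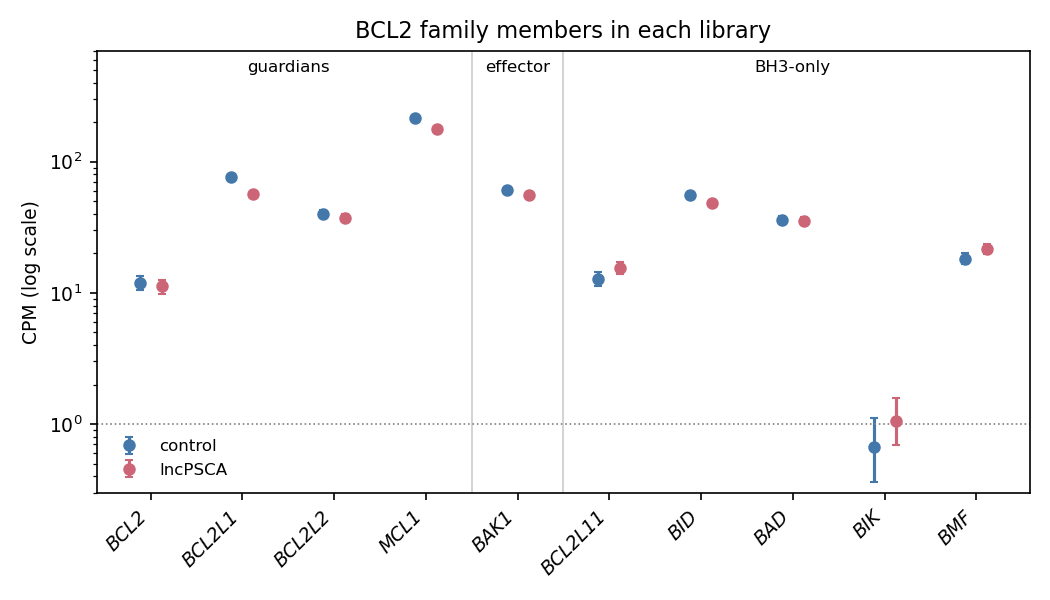
CPM (log scale) of the 10 members in the control library (blue) and the lncPSCA library (red), ordered by role. Points are the value in the 1 library of each group, bars are exact 95% counting intervals, and the dotted line is the minimum of 1 CPM. MCL1 lies highest in both libraries at 214 and 178 CPM. BIK lies under the line in control (0.664 CPM) and just above it in lncPSCA (1.06 CPM), with a mean under the minimum.

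The 4 guardians all had a lower CPM in the lncPSCA library, by at most 1.34-fold and for BCL2 and BCL2L2 by no more than counting error. MCL1 (ENSG00000143384), the short-lived guardian that binds BAK1, had 4512 reads in control and 4180 in lncPSCA, or 214 and 178 CPM. The MCL1 fold was 0.831 (0.797 to 0.867), a log2 ratio of -0.27. BCL2L1 (ENSG00000171552), which encodes BCL-XL, had 1611 and 1342 reads, or 76.4 and 57.1 CPM. The BCL2L1 fold of 0.748 (0.695 to 0.804), a log2 ratio of -0.42, was the furthest from 1 among the 9 members above the minimum. The counting intervals of the CPM of MCL1 (208 to 220 in control, 172 to 183 in lncPSCA) and of BCL2L1 (72.7 to 80.2 and 54.1 to 60.2) did not overlap between the libraries. The share of all genes without such overlap was not computed. A fold interval that excludes 1, seen for 59.1% of all genes, is a looser measure and does not give that share. BAK1 met it although its CPM intervals overlapped (57.7 to 64.4 in control and 53.0 to 59.1 in lncPSCA). BCL2 itself (ENSG00000171791), the founding guardian, was far less abundant, with 250 and 263 reads (11.9 and 11.2 CPM), and its fold was 0.944 (0.791 to 1.13). BCL2L2 (ENSG00000129473), which encodes BCL-W, had 837 and 881 reads (39.7 and 37.5 CPM) and a fold of 0.945 (0.858 to 1.04). In bulk RNA a lower level in each cell and fewer cells that carry the transcript cannot be told apart. Summed over the 4 guardians, 342 CPM in control compared with 284 CPM in lncPSCA.

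BAK1 (ENSG00000030110), a pore-forming effector held in check by MCL1 and BCL-XL, had 1287 reads in control and 1316 in lncPSCA. These are 61.0 and 56.0 CPM, a fold of 0.918 (0.849 to 0.992). The upper bound lies so near 1 that the interval included 1 when the libraries were scaled by DESeq2 size factors or by total counts, and under either centring described below. GENCODE lists 2 pseudogenes named after BAK1, and reads shared with them may not have been counted. The CPM of BAX, the other main effector and not among the 10, were 105 and 86.4 (fold 0.821, 0.772 to 0.872).

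The BH3-only members pointed in different directions. BCL2L11 (ENSG00000153094), which encodes BIM, a BH3-only protein that binds every guardian, had 268 reads in control and 366 in lncPSCA. This is 12.7 and 15.6 CPM, a fold of 1.23 (1.04 to 1.44). BMF (ENSG00000104081), whose protein is held on actin-bound motors until released, had 385 and 511 reads, or 18.3 and 21.7 CPM, a fold of 1.19 (1.04 to 1.36). Both were higher in lncPSCA by more than counting error and by less than the 1.5-fold rule asks. BID (ENSG00000015475), which caspase-8 cleaves to link death receptors to mitochondria, had 1165 and 1139 reads, or 55.2 and 48.5 CPM, a fold of 0.877 (0.808 to 0.953) whose interval included 1 under either centring. BAD (ENSG00000002330), which growth factor kinases inactivate by phosphorylation, had 762 and 833 reads, or 36.1 and 35.4 CPM. The BAD fold of 0.981 (0.888 to 1.08) is within counting error, and its log2 ratio of -0.03 was above 0 under total-count scaling (0.03) and either centring. BIK (ENSG00000100290), a BH3-only protein of the endoplasmic reticulum, had 14 and 25 reads, or 0.664 and 1.06 CPM, and its fold of 1.60 (0.802 to 3.34) cannot be told from 1 at this depth.

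**Figure D2:**
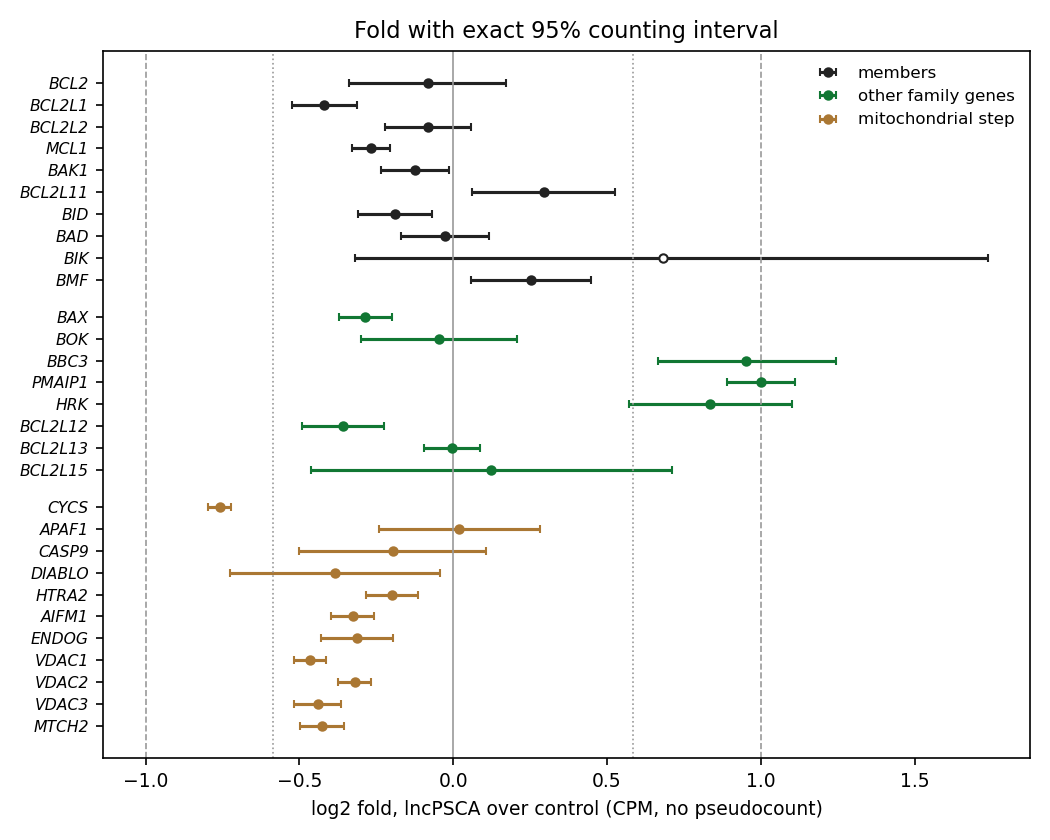
Fold of lncPSCA over control on a log2 axis, from CPM without a pseudocount, for the 10 members (black), the 8 measured other genes of the BCL2 family (green) and 11 genes of the mitochondrial step (brown). Bars are exact 95% counting intervals, dotted and dashed lines mark 1.5-fold and 2-fold, and the open symbol is BIK, whose mean is under 1 CPM. The members lie between the dotted lines except BIK, while BBC3, PMAIP1 and HRK lie beyond 1.5-fold on the right and CYCS beyond it on the left.

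The differences of the members were set against those of genes of like abundance. Across all genes the log2 ratio declined with mean CPM, from a median of 0.15 in the lowest quartile to -0.13 in the highest. MCL1 and BCL2L1 fall in the highest quartile, whose interquartile range was -0.30 to 0.06, so MCL1 lay inside it and BCL2L1 outside. BCL2, BCL2L11 and BMF fall in the quartile above the lowest (-0.21 to 0.35) and all lay inside its range, as did BCL2L2, BAK1, BID and BAD in the next quartile (-0.27 to 0.19). In all, 8 members lay inside the interquartile range of their quartile and 1 outside. A log2 ratio as far from 0 as that of BCL2L1 was seen in 29.7% of all measured genes, and as far as that of BCL2L11 in 46.3%. Centred along mean expression, the log2 ratio of MCL1 was -0.13, that of BCL2L1 -0.32, that of BCL2L11 0.24 and that of BMF 0.24. Longer transcripts also had higher ratios, with a median of 0.25 in the 1500 genes with the longest transcripts. Centred along transcript length, BCL2L11 stood at 0.23 with an interval that only just included 0 (lower bound -0.0013). BCL2, whose longest transcript has 7461 bases, stood at -0.26 with an interval only just below 0 (upper bound -0.0018).

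**Figure D3:**
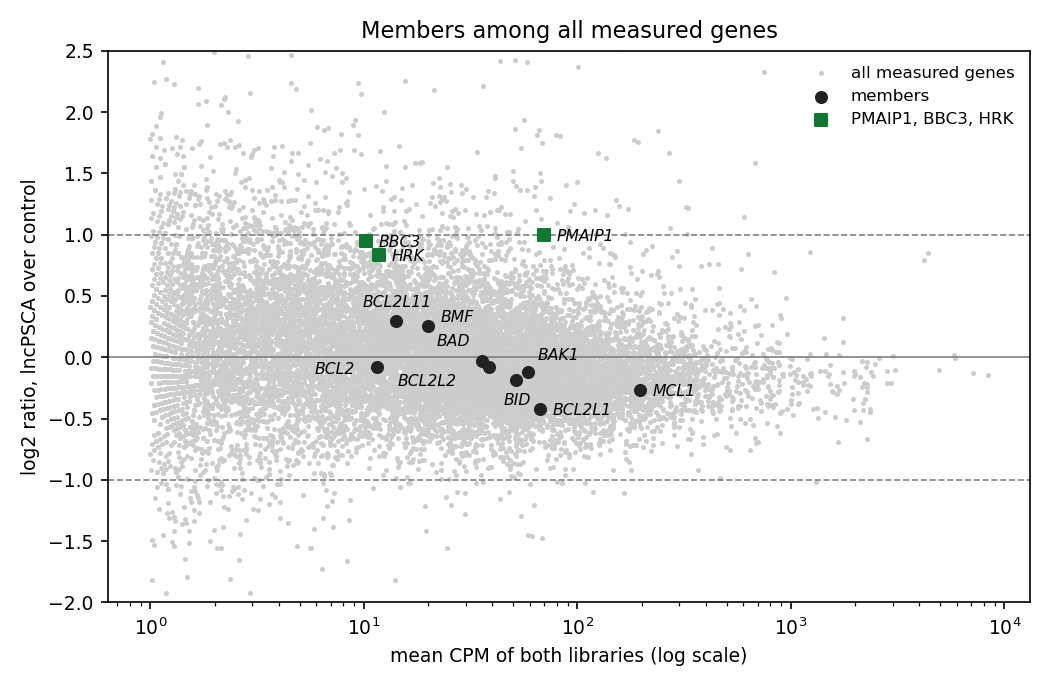
Log2 ratio of lncPSCA over control (pseudocount 1) against mean CPM (log scale) for all 15440 measured genes (grey), the 9 measured members (black circles) and PMAIP1, BBC3 and HRK (green squares). Dashed lines mark 2-fold, and 102 grey genes lie outside the plotted range. The members lie within the bulk of the cloud, between -0.42 and 0.29, and the green genes lie near its upper edge.

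Levels of different genes were compared only per kilobase of exons in GENCODE release 29. MCL1 was the most abundant member on this scale, at 48.9 CPM per kilobase in control and 40.7 in lncPSCA. BAK1 followed at 27.6 and 25.3, and then BCL2L1 at 23.0 and BAD at 21.1 in control. In the lncPSCA library BAD, at 20.7 CPM per kilobase, stood above BCL2L1, at 17.2. BID was at 12.4 and 10.9, BCL2L2 at 9.47 and 8.95, BMF at 3.35 and 3.99, and BCL2L11 at 1.91 and 2.34. BCL2 was at 1.01 and 0.951 CPM per kilobase and BIK at 0.696 and 1.12, so their order differed between the libraries, but the BIK values rest on 14 and 25 reads. These levels use the union of all annotated exons, which is long for BCL2 (11760 bases) and lowers its value if only short transcripts are made. The orders depend on this choice of length. With the longest transcript as length, BAD held a larger share of the members' reads per kilobase than BCL2L1 in both libraries. These shares were 16.95% and 15.88% in control and 18.78% and 13.41% in lncPSCA. BAK1, at 14.97% and 15.52%, then stood below BAD in both libraries. BCL2 stood above BIK in both, at 0.86% and 0.38% in control and 0.92% and 0.68% in lncPSCA.

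The 4 guardians together made up 55.1% of the members' reads per kilobase in control and 51.3% in lncPSCA, a difference of -3.84 percentage points. As a share of reads, they took 7210 of 11091 reads in control, or 65.0% (Clopper-Pearson interval 64.1 to 65.9), and 6666 of 10856 in lncPSCA, or 61.4% (60.5 to 62.3). These intervals do not overlap, and this share does not depend on how the libraries were scaled. The share was not centred along mean expression or transcript length, and no like share was computed for other sets of genes. Per kilobase, BCL2L1 went from 15.4% to 13.0% and MCL1 from 32.7% to 30.8%. BAD had the largest gain in share, from 14.1% to 15.7%, although its CPM was not higher (36.1 in control and 35.4 in lncPSCA). Summed over the BH3-only members, the CPM were 123 in control and 122 in lncPSCA. As a share of reads the largest gain was that of BMF, from 3.47% to 4.71%, and the share of BCL2L1 (-2.16 points) and that of MCL1 (-2.18 points) differed by nearly the same amount.

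**Figure D4:**
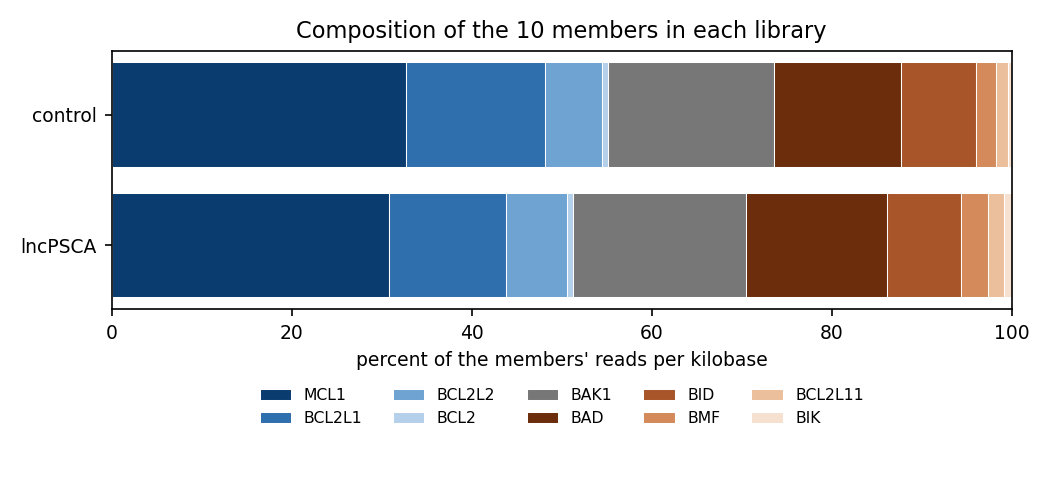
Share of each member in the summed reads per kilobase of the 10 members, in percent, for the control and the lncPSCA library (1 library each). Blue segments are guardians, grey is BAK1 and brown segments are BH3-only genes. The blue part covers 55.1% of the control bar and 51.3% of the lncPSCA bar.

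Ratios of BH3-only and effector transcripts to guardian transcripts were compared next, because they too are free of the scaling of the libraries. They are not free of the trends with mean CPM and transcript length described above, and no centring was applied to them. MCL1 and BCL2L1 lie in the highest quartile of mean CPM, while BCL2L11 and BMF lie in a lower one. All 24 ratios of the 6 BH3-only or effector members to the 4 guardians were computed, a comparison added after seeing the data, and they share their members. In lncPSCA 20 of the 24 were higher than in control and 4 lower. The counting interval of the difference was above 1 for 14, below 1 for 0 and including 1 for 10. The like share over pairs of all genes was not computed, so these counts have no background of their own. For single genes, the fold interval excluded 1 for 59.1% of all genes. The lower values of BCL2L1 and MCL1 recur in every ratio to them. Against BCL2L1 all 6 differences had an interval above 1, and against MCL1 4 of 6. Against BCL2 and against BCL2L2 the interval was above 1 for 2 of 6 each, those of BCL2L11 and BMF.

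The ratio of BCL2L11 to BCL2L1, per kilobase, was 0.0828 in control and 0.136 in lncPSCA, a 1.64-fold difference (1.37 to 1.96). The ratio of BCL2L11 to MCL1 differed 1.47-fold (1.25 to 1.74), and that of BCL2L11 to BCL2 1.30-fold (1.02 to 1.65). For BMF the differences were 1.59-fold against BCL2L1 (1.37 to 1.86), 1.43-fold against MCL1 (1.24 to 1.65) and 1.26-fold against BCL2 (1.01 to 1.58). BAD over BCL2L1, a pair whose binding depends on BAD phosphorylation, showed a 1.31-fold difference (1.16 to 1.49). BAK1 over BCL2L1 differed 1.23-fold (1.10 to 1.37) and BAK1 over MCL1 1.10-fold (1.01 to 1.21). The 4 ratios that were lower in lncPSCA were those of BAK1 to BCL2 (0.972) and BCL2L2 (0.972) and of BID to BCL2 (0.929) and BCL2L2 (0.929), and all 4 intervals included 1. BIK over BCL2L1 differed by the most, 2.14-fold, but with an interval of 1.07 to 4.48 that rests on 14 and 25 reads of BIK.

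A few BH3-only genes outside the 10 showed larger differences. The list compared held 11 other genes of the BCL2 family, not all of them BH3-only, and 8 reached the minimum of 1 CPM. Under the 1.5-fold rule 3 of the 8 were higher and none lower (all genes: 8.85% higher, 4.6% lower). The median log2 ratio of the 8 was 0.06, and 5 of the 8 lay within the range of the members. The 3 higher genes are BH3-only genes. PMAIP1, which encodes NOXA, a protein that binds MCL1 and speeds its degradation, had 983 reads in control and 2191 in lncPSCA, or 46.6 and 93.2 CPM, a fold of 2.0 (1.86 to 2.16). BBC3, which encodes PUMA, a protein that binds every guardian, had 147 and 317 reads, or 6.97 and 13.5 CPM, a fold of 1.94 (1.59 to 2.37). HRK, whose protein prefers BCL-XL, had 179 and 356 reads, or 8.48 and 15.1 CPM, a fold of 1.79 (1.49 to 2.15).

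None of the 3 met the 2-fold rule, PMAIP1 narrowly, at a log2 ratio of 0.9996 with the pseudocount. PMAIP1 met it under DESeq2 size factors (1.01), total counts (1.06), either centring (1.10 and 1.11) and without a pseudocount (1.0), and BBC3 under total counts (1.01) and when centred along length (1.06). Among the other measured members of this list, BCL2L12, whose exons are overlapped by IRF3 on the opposite strand over 33.1% of their bases, had a fold of 0.780 (0.711 to 0.856), and BCL2L13, BOK and BCL2L15 had intervals that included 1. BCL2A1, BCL2L10 and BCL2L14 were under the minimum, with BCL2A1 at 0 reads in both libraries.

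Set against its partner MCL1, PMAIP1 stood at 0.426 per kilobase in control and 1.02 in lncPSCA, a 2.41-fold difference (2.21 to 2.63). HRK relative to BCL2L1 differed 2.39-fold (1.96 to 2.92), BBC3 relative to BCL2L1 2.59-fold (2.09 to 3.21) and BBC3 relative to MCL1 2.33-fold (1.90 to 2.86). These partners were chosen after the values were seen. PMAIP1, BBC3 and HRK were picked because they passed the 1.5-fold rule, and MCL1 and BCL2L1 had the lowest folds of the 4 guardians. Large values were therefore fixed by these choices, and no comparison with the 24 ratios above is drawn.

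Of 11 genes at the mitochondrial step, 1 was lower and none higher under the 1.5-fold rule (all genes: 4.6% lower, 8.85% higher). The log2 ratio was below 0 for 10 of the 11 and for 51.9% of all genes, and the median of the 11 was -0.33. Of these genes 7 lie in the highest quartile of mean CPM, where the median of all genes was -0.13. Centred along mean expression, the median of the 11 was -0.29. CYCS, cytochrome c, had 13718 and 9031 reads, or 650 and 384 CPM, a fold of 0.591 (0.575 to 0.607). GENCODE lists 40 pseudogenes named after CYCS, so reads shared with them make its value uncertain. VDAC1, a channel of the outer membrane with 13 such pseudogenes, had a fold of 0.724 (0.699 to 0.751). VDAC2, which anchors BAK1 and has 4 such pseudogenes, had a fold of 0.801 (0.771 to 0.832). For MTCH2, the membrane receptor of cleaved BID, the fold was 0.744 (0.708 to 0.783). APAF1, the scaffold of the apoptosome, was at 10.9 and 11.1 CPM.

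Proteins that hold BH3-only members in reserve had a similar median. Of 9 genes, the 14-3-3 proteins that bind phosphorylated BAD and the dynein light chains that bind BIM and BMF, 1 was higher and none lower under the 1.5-fold rule (all genes: 8.85% higher, 4.6% lower), and the median log2 ratio was -0.33. The higher gene was SFN (14-3-3 sigma), with only 17 and 42 reads, a fold of 2.22 (1.24 to 4.15) that did not meet the rule when centred along mean expression. DYNLL1, the light chain that binds BIM, had 251 and 192 CPM, a fold of 0.764 (0.734 to 0.795), and DYNLL2, which binds BMF, 127 and 101 CPM, a fold of 0.797 (0.754 to 0.843). GENCODE lists 7 pseudogenes named after DYNLL1, so reads shared with them make its value uncertain. All but SFN lie in the highest quartile of mean CPM too, and centred along mean expression the median of the 9 was -0.20.

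Among 12 enzymes that modify BAD, BIM, MCL1 or BID, the median log2 ratio was -0.06. Only PIM2, a kinase that phosphorylates BAD, passed the 1.5-fold rule (all genes, either direction: 13.5%), with 169 and 114 reads and a fold of 0.605 (0.473 to 0.772). Of 6 ubiquitin ligases and deubiquitinases of MCL1, with a median of -0.09, USP9X alone passed (the same 13.5% of all genes). USP9X, which removes ubiquitin from MCL1, had 780 and 1512 reads and a fold of 1.74 (1.60 to 1.90), but its transcript is long, and centred along length its log2 ratio dropped from 0.80 to 0.48 and no longer met the rule. HUWE1, a ligase for MCL1 with a long transcript too, had a log2 ratio of 0.48 that became 0.12 after the same centring.

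Of 13 transcription factors known to act on the family, 2 were higher and none lower under the 1.5-fold rule (all genes: 8.85% higher, 4.6% lower), with a median log2 ratio of 0.29. FOXO3, a forkhead factor and textbook activator of BCL2L11, BBC3 and BMF, had 636 and 1296 reads, or 30.1 and 55.1 CPM. The FOXO3 fold was 1.83 (1.66 to 2.01). Centred along length its log2 ratio dropped from 0.87 to 0.70, beyond its counting interval, and still met the rule. TP73 had 100 and 181 reads and a fold of 1.62 (1.27 to 2.10), which did not meet the rule when centred along mean expression. DDIT3, which encodes CHOP, a stress-induced activator of BCL2L11, had a fold of 1.46 (1.36 to 1.57); MARS overlaps 27.2% of the exonic bases of DDIT3 on the opposite strand. Of 5 further genes with a BH3-like stretch none passed; by abundance the first were BECN1, at 59.3 and 50.2 CPM, and BNIP2, at 27.7 and 27.1 CPM.

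Some member values may hold reads of neighbours, or lack reads shared with them, as it is not stated whether the counting used strand. How reads that fall on overlapping genes were counted was not examined here either. In GENCODE release 29, 43.0% of the exonic bases of BCL2L1 are overlapped by ABALON and 23.7% of those of BAD by GPR137, both on the opposite strand. GPR137 had 1353 and 1658 reads, a fold of 1.10 (1.02 to 1.18). ABALON has no row of its own among the counts, so its reads could not be examined. On the same strand, 19.4% of the exonic bases of BCL2L2 are shared with the read-through gene BCL2L2-PABPN1, which had 2 and 0 reads. PABPN1, which also shares exonic bases with that gene, had 2815 and 1996 reads, a fold of 0.636 (0.601 to 0.674). BMF-AS1, antisense to 8.46% of BMF, had 45 and 80 reads, a fold of 1.60 (1.09 to 2.35). MIR4435-2HG, opposite to 10.9% of BCL2L11, had 190 and 174 reads. The part of these overlaps in the members' ratios was not tested.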

How the data were processed

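The authors deposited 1 table of raw read counts per Ensembl gene, with 1 column per library. The submitters' processing notes name TopHat2, HTSeq and hg19; versions, annotation, strand setting and filters were not given in the sources used here. Symbols matched 52181 identifiers (81.9%). Libraries were scaled with edgeR 4.0.16 (TMM factors 0.979 in control, 1.02 in lncPSCA). Fold intervals are exact binomial (Clopper-Pearson) and CPM intervals exact Poisson. They treat reads as independent, which without molecular identifiers they may not be, and hold no spread between cultures. Overlaps, pseudogenes and lengths came from GENCODE release 29 (GRCh38), matched by identifier; 97.1% of measured genes had a length. Centring used a lowess curve with a span of 0.3. The computation was tested on simulated data.

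Members, gene lists and rules were chosen with earlier results of these data known. Named genes were the 10 members, PSCA and, of each other list, the genes past the 1.5-fold rule or the 2 most abundant. Of the interferon-stimulated genes only those with the lowest and the highest fold were named. Further genes were named after their values were seen. With 2 libraries no gene was ranked by likeness to a member. The alternatives tried were scaling by DESeq2 1.42.0, by total counts or by the upper quartile, no CPM minimum, a minimum of 5 CPM, a pseudocount of 5 or none, both centrings and other gene lengths. A gene of the transcription factor list is not reported here.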

Additional observations from a re-analysis of the deposited data

How the results depend on the processing

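The counts of members past the 2-fold and the 1.5-fold rule were 0 under all 9 alternatives. The number of members whose counting interval excluded 1, a description added after seeing the data, ranged from 4 to 6. BAK1 was lost under DESeq2 size factors and total counts, and BAK1 and BID when centred along mean expression. Centred along transcript length, BAK1, BCL2L11 and BID were lost and BCL2 was gained, but the bounds that decided BCL2L11 and BCL2 lay very near 0 on the log2 scale. The median log2 ratio of the members ran from -0.11 under upper-quartile scaling to -0.02 under total counts. The log2 ratio of BCL2L1 ran from -0.44 to -0.32, that of BCL2L11 from 0.23 to 0.35 and that of BMF from 0.22 to 0.31. MCL1 moved beyond its counting interval under total counts (-0.21) and when centred along mean expression (-0.13). The difference in guardian share was -3.81 percentage points with the longest transcript as length, -3.60 as a share of reads and -4.35 without BCL2L2. The 3 other family genes past the 1.5-fold rule were HRK, PMAIP1 and BBC3 under each alternative, which were extended to these genes after seeing the data. No paired analysis was possible because each group has 1 library, and for the same reason no library could be left out. Depth limits BIK most.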
